A study of Mus musculus with 2 samples.

Results

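Hepatocytes make most of the complement and coagulation proteins of the blood. Complement is a cascade of plasma proteases and binding proteins that marks microbes for uptake and assembles pores in their membranes, and coagulation is the cascade that ends in thrombin cutting fibrinogen into fibrin, with inhibitors and fibrinolytic enzymes holding it in check. The list followed here holds 40 such genes, 18 of complement and 22 of coagulation, and they were looked up by symbol in both marker tables of the series, which together name 2783 genes. At least 1 table listed 38 of the 40. C8g, which encodes the gamma chain of complement component 8, and Mbl2, a mannose-binding lectin, were listed in neither.

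Primary hepatocytes came from wild type BALB/c mice that were injected i.p. every day for 5 days with PBS or with 0.5 µg of rIL-33, a cytokine that activates group 2 innate lymphoid cells, and the mice were fasted. The cells were freed by perfusing the liver with Liberase and were profiled by droplet 3′ scRNA-seq, with 1 library for each condition, 2 in all, and no sort before loading. The study's methods give an age of 8 to 10 weeks for mice used for hepatocyte isolation, and the number of mice behind each library is not given in the sources used here. Both tables pool PBS and rIL-33 cells, so the values describe clusters of cells and cannot be split by treatment. With no replicate library and no count per cell, no spread between samples, no interval and no test can be given for any value here, and the depth of the cells is unknown.

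A table row pairs a gene with a cluster and gives how many of the cells, in %, had a nonzero value for that gene (the share), once for the cluster and once for the reference cells outside it. A gene is called listed for a cluster when it has a row there. In both tables each row had a share of at least 25% on one side, and the rows met a minimum log2 fold change of 0.25, so a gene that is not listed is not shown to be off. Every row, also one with a lower share in the cluster, thus had a higher mean there. The hepatocyte table compares 5 clusters, Hepatocyte1 to Hepatocyte5, with the other hepatocytes and holds 1604 genes. The table of all cells compares 12 clusters with all other cells and holds 1755 genes. From the balance of both shares over 486 genes, Hepatocyte1 held 55.6% of the hepatocytes, Hepatocyte2 14.9%, Hepatocyte3 10.1%, Hepatocyte4 18.1% and Hepatocyte5 1.47%. The hepatocyte markers Alb, Apob, Cps1 and Trf were listed for both Hepatocyte4 and Hepatocyte5, Hepatocyte1 listed 1 of the 8 hepatocyte markers (Ttr), Hepatocyte2 and Hepatocyte3 listed 0, and 0 markers of other liver lineages were listed for any cluster of the hepatocyte table.

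Within the hepatocytes, the complement and coagulation genes were listed for Hepatocyte5 and, for part of them, also for Hepatocyte4. Hepatocyte5 listed all 38 genes present in the table (16 complement, 22 coagulation), where 54.3% of all genes in that table were listed for it. A gene is in that table only through a row for some cluster. Of the 38, 13 were there through their Hepatocyte5 row alone, as were 441 of all 1604 genes, so their listing for it was fixed beforehand. C8g and Mbl2, without a row, are not counted among the 38. Hepatocyte4 listed 25 of the 38 (12 complement, 13 coagulation), beside 54.7% of all genes. These 25 of the 38 were thus listed for both clusters, beside 26.8% of all genes. That all 25 were also listed for Hepatocyte5 follows from its listing every member present. Of the 877 genes of any kind listed for Hepatocyte4, 430 were also listed for Hepatocyte5. Hepatocyte1 listed 0 of the 38 (10.5% of all genes), Hepatocyte2 listed 0 (3.49%) and Hepatocyte3 listed 0 (7.67%). Below, "listed for Hepatocyte5 alone" refers to the hepatocyte table.

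**Figure D1:**
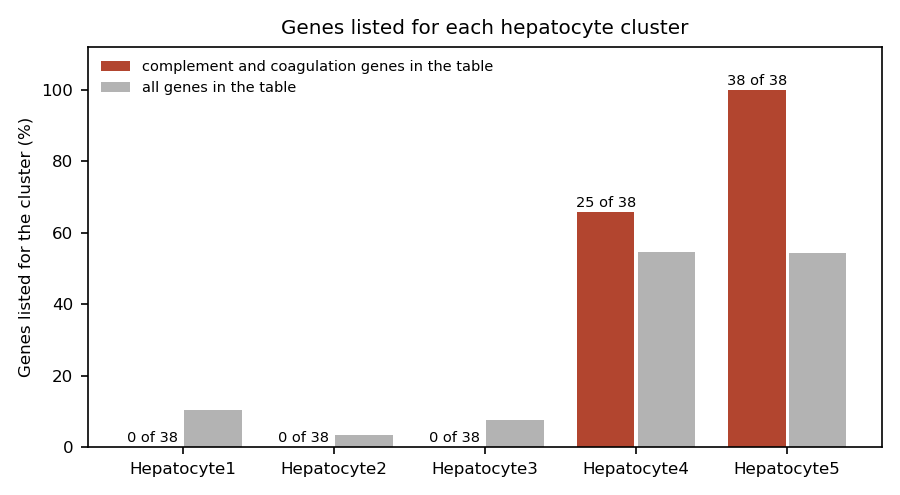
Percentage of genes listed for each hepatocyte cluster (y axis, %), for the 38 complement and coagulation genes in the hepatocyte table (red bars, counts above) and for all 1604 genes in it (grey bars). The red bars reach 25 of 38 in Hepatocyte4 and 38 of 38 in Hepatocyte5 and stand at 0 in the other clusters.

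The share was higher inside the cluster for every listed member. Over the 25 members listed for Hepatocyte4 the median gap to the other hepatocytes was 44.8 percentage points (range 19.7 to 61.8), beside 33.1 points over all 877 rows of that cluster. Over the 38 members listed for Hepatocyte5 it was 59.6 points (range 8.1 to 76.5), beside 42.9 points over all 871 rows. Complement and coagulation genes lay close together, with medians of 46.2 and 44.8 points in Hepatocyte4 and 61.3 and 55.9 points in Hepatocyte5. A higher share was also the common case for any gene there, in 875 of 877 Hepatocyte4 rows and 870 of 871 Hepatocyte5 rows, while Hepatocyte1 had a lower share in 159 of its 169 rows. Those Hepatocyte1 rows too were listed with a higher mean in the cluster. The transcripts captured per cell in each cluster were not analysed here, and their part in these gaps was not tested. When each share was turned into the mean number of transcripts that Poisson counts would imply, the median ratio over the members in Hepatocyte4 was 5.89, close to the 5.96 of all rows, so on that scale the members did not stand above the cluster's other markers. In Hepatocyte5 it was 11.3 beside 8.71. A share of 100% implies no finite mean and was kept as the highest ratio. In Hepatocyte5, 11 of the 38 members and 46 of the 871 rows stood at 100%, which raises the members' median more.

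In the cascade's first steps, Masp1 and Masp2 are the proteases of the lectin pathway, and C1ra and C1s1 encode the proteases of the C1 complex. Masp1 had a share of 30.0% in Hepatocyte4 and 4.2% in the other hepatocytes, and of 55.0% in Hepatocyte5 and 8.2% outside it. C1s1 was detected in 46.9% against 5.9% for Hepatocyte4 and in 75.5% against 12.4% for Hepatocyte5. Outside these clusters both genes had low shares in the hepatocyte table, while the table of all cells, described further on, gave 35.1% for Masp1 and 28.7% for C1s1 outside Hepatocyte4. Masp2 and C1ra were listed for Hepatocyte5 alone, Masp2 at 78.1% against 19.5% and C1ra at 51.7% against 4.6%. C1ra and C1s1 lie beside each other on chromosome 6 (GRCm38, chr6:124512405-124523443 and chr6:124530345-124542359, on opposite strands) and each has a near-identical copy, C1rb and C1s2, to which reads may be lost.

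The convertase components C2, C4b, C3 and Cfb form the enzymes that cleave C3 and C5. C3, the central component, was already frequent in other hepatocytes, at 95.5% in Hepatocyte4 against 75.8% and at 100% in Hepatocyte5 against 79.0%. C4b stood at 67.4% in Hepatocyte4 against 25.1% and at 100% in Hepatocyte5 against 31.8%. Cfb, the factor B of the alternative pathway, was close to C4b, at 71.5% against 26.7% in Hepatocyte4 and at 100% against 33.9% in Hepatocyte5. These 3 genes were detected in every Hepatocyte5 cell, to the precision given. Hepatocyte5 held 1.47% of the hepatocytes, so its shares rest on the fewest cells of the 5 clusters. C2 was listed for Hepatocyte5 alone at 48.3% against 6.3%. C2 and Cfb are neighbours in the complement region of chromosome 17 (chr17:34862604-34898265 and chr17:34856374-34862518, both on the minus strand). C4b has a near-identical copy, C4a, so its reads may be split.

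The terminal components build the membrane attack complex. C9, which polymerizes into the pore, had the largest gap of all members in Hepatocyte4, at 86.7% against 24.9%, rank 6 of the 877 rows by gap. By the ratio of implied means C9 ranked only 224 there, and C1s1, at rank 16, stood highest of the members. In Hepatocyte5 C9 was detected in 94.7% against 35.2%. Hc, the gene of complement component 5, was at 68.0% against 20.5% in Hepatocyte4 and at 100% against 28.1% in Hepatocyte5. C8a and C8b, alpha and beta chains of component 8 and neighbours on chromosome 4, differed in frequency but not in order. C8a was at 71.1% against 16.5% in Hepatocyte4 and 96.7% against 25.3% in Hepatocyte5. C8b was at 48.7% against 10.8% and at 80.1% against 16.8%. C6 was the least frequent of the terminal genes and was listed for Hepatocyte5 alone, at 33.1% against 5.4%.

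The 3 complement regulators were listed for both clusters. Cfi, the protease that inactivates C3b and C4b, was detected in 82.0% of Hepatocyte4 against 27.4% and in 96.0% of Hepatocyte5 against 36.4%. C4bp, a binding protein that serves as its cofactor, was at 75.4% against 20.5% and at 95.4% against 29.5%. Serping1, the C1 inhibitor, was at 78.0% against 28.3% and at 99.3% against 36.4%. Their gaps were nearly equal within a cluster, between 49.7 and 54.9 points in Hepatocyte4 and between 59.6 and 65.9 points in Hepatocyte5.

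On the coagulation side, the fibrinogen chains were the most frequent members over all hepatocytes. Fga was at 99.7% against 79.7% for Hepatocyte4 and at 100% against 83.1% for Hepatocyte5. Fgg was at 98.8% against 77.6% and at 100% against 81.1%. Fgb was listed for Hepatocyte5 alone, at 100% against 91.9%, the smallest gap of any member. With so high a share in the other hepatocytes, little room was left for a gap in these 3 genes. F13b, the carrier subunit of the factor that crosslinks fibrin, was unlike them, at 49.9% against 7.7% in Hepatocyte4 and at 78.1% against 14.4% in Hepatocyte5.

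The 3 fibrinogen genes lie side by side on chromosome 3 of GRCm38, Fgg at chr3:83007724-83015049 and Fga at chr3:83026076-83033627 on the plus strand and Fgb at chr3:83040141-83049863 on the minus strand. The bases before their starts are printed because these neighbours shared the highest frequencies, and those before C9 (chr15:6445327-6498751, plus strand) because C9 had the largest gap in Hepatocyte4. The RefSeq promoter table of GRCm38.p6 held 31 of the 40 members. Stretches run 5′ to 3′ on the gene's own strand within the 250 bases before the RefSeq start, from which 77 bases of Fga and 19 of C9 that GENCODE M21 places in the transcript were left out. Capitals mark TTGCNNAA (a C/EBP-type string), TTCNNNGAA (a STAT-type string) and GTTAAT (an HNF1-type string), read on both strands with N for any base.
Fga, chr3:83025903-83026075, plus strand: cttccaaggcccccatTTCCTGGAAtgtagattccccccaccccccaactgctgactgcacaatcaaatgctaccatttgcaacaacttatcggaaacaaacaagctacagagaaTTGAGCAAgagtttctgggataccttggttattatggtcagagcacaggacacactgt
Fgb, chr3:83049864-83050113, minus strand: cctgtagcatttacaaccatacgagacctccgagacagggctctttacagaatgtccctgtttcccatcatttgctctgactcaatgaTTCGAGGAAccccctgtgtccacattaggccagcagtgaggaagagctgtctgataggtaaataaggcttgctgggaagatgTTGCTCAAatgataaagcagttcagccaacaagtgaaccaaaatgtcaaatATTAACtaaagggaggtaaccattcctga
Fgg, chr3:83007474-83007723, plus strand: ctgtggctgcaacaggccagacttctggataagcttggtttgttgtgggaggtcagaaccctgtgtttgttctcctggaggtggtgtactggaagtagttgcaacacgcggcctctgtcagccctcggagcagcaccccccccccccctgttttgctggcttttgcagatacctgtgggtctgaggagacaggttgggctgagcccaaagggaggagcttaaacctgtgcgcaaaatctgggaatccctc
C9, chr15:6445096-6445326, plus strand: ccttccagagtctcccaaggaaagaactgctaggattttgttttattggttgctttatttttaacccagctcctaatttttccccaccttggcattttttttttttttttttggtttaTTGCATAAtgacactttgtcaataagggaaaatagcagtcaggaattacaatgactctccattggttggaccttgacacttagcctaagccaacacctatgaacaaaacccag

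Within the full 250 bases, Fga and Fgb held all 3 strings, C9 held TTGCNNAA and Fgg held none of them. The GTTAAT match of Fga lies in the bases left out. Of the 31 members with a promoter, 9 held TTGCNNAA, beside 9.56% of all 32851 promoters of the table. GTTAAT was found in 9 members (6.43% of all promoters) and TTCNNNGAA in 6 (7.02%). These 3 strings were picked for display after 12 had been counted, so the counts are a description. Of the others, CAAAGTCCA, an HNF4-type string, was in 0 members (0.384% of all promoters) and TATAAA was in 3 (12.4%).

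Thrombin generation was represented by F2, F5 and F10. F2, the prothrombin gene, was detected in 90.2% of Hepatocyte4 against 42.5% and in 100% of Hepatocyte5 against 50.4%. F5, the cofactor of the prothrombinase complex, was at 60.6% against 11.8% in Hepatocyte4. In Hepatocyte5 it was at 96.0% against 19.5%, the largest gap of any member and rank 7 of the 871 rows. By the ratio of implied means F5 ranked 78 there. F10, the protease of that complex, was listed for Hepatocyte5 alone, at 96.7% against 26.3%. Its neighbour on chromosome 8 is F7 (chr8:13037308-13056676 and chr8:13026034-13035809, both on the plus strand).

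F7, F9 and F11 encode the proteases upstream of factor X, and they were among the rarer members. F7 was detected in 28.9% of Hepatocyte4 against 4.9% and in 58.9% of Hepatocyte5 against 8.5%, listed for both clusters where F10 was listed for Hepatocyte5 alone. F9 was at 54.6% against 9.8% and at 73.5% against 17.1%. F11 was listed for Hepatocyte5 alone, at 29.1% against 2.9%, the lowest share of any member in that cluster.

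The contact system starts coagulation on charged surfaces and releases bradykinin. F12, its initiating protease, showed the widest step between both clusters, at 37.6% in Hepatocyte4 against 7.7% and at 86.8% in Hepatocyte5 against 12.1%. Klkb1, the prekallikrein gene, was at 57.5% against 8.4% and at 86.8% against 16.3%. The kininogens Kng1 and Kng2, neighbouring near-identical copies on chromosome 16 whose reads may be split, were listed for Hepatocyte5 alone. Kng1 was at 100% against 56.5% and Kng2 at 85.4% against 18.8%.

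Of the inhibitors of coagulation, the serpins were listed for both clusters and the protein C pair for Hepatocyte5. Serpinc1, which encodes antithrombin, was at 85.9% against 45.4% in Hepatocyte4 and at 98.7% against 52.0% in Hepatocyte5. Serpind1, heparin cofactor II, was less frequent outside, at 61.2% against 11% and at 93.4% against 19.0%. Protein C and its cofactor protein S were listed for Hepatocyte5 alone, Proc at 97.4% against 26.9% and Pros1 at 33.1% against 3.6%. In fibrinolysis, Plg, the plasminogen gene, was at 89.3% against 35.8% and at 100% against 44.7%. Serpinf2, the plasmin inhibitor, was at 64.7% against 14.0% and at 91.4% against 22.2%. Cpb2, a carboxypeptidase that slows fibrinolysis, was listed for Hepatocyte5 alone, at 94.0% against 33%, as was Vtn, the adhesion protein vitronectin, at 100% against 61.7%.

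Among the 25 members listed for both clusters, the share in Hepatocyte5 was above that in Hepatocyte4 for 25 of 25, as it was for 425 of the 430 genes of any kind listed for both. The median step was 25.6 points over the members and 21.9 points over those 430 genes. It ran from 0.3 points for Fga, which was near 100% in both, to 49.2 points for F12. The share in Hepatocyte1 to Hepatocyte3 as 1 group was solved from the shares and the relative cluster sizes. Its median over the 25 members was 19.1%, from 3.28% for Masp1 to 79.3% for Fga, beside 8.24% over the 430 genes. That it lay below the Hepatocyte4 share in these genes follows from how they were chosen, since each was listed with a higher share in Hepatocyte4 and Hepatocyte5. The median was 21.4% for the 12 complement genes and 10.2% for the 13 coagulation genes. No such value was solved for the 13 members without a Hepatocyte4 row.

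**Figure D2:**
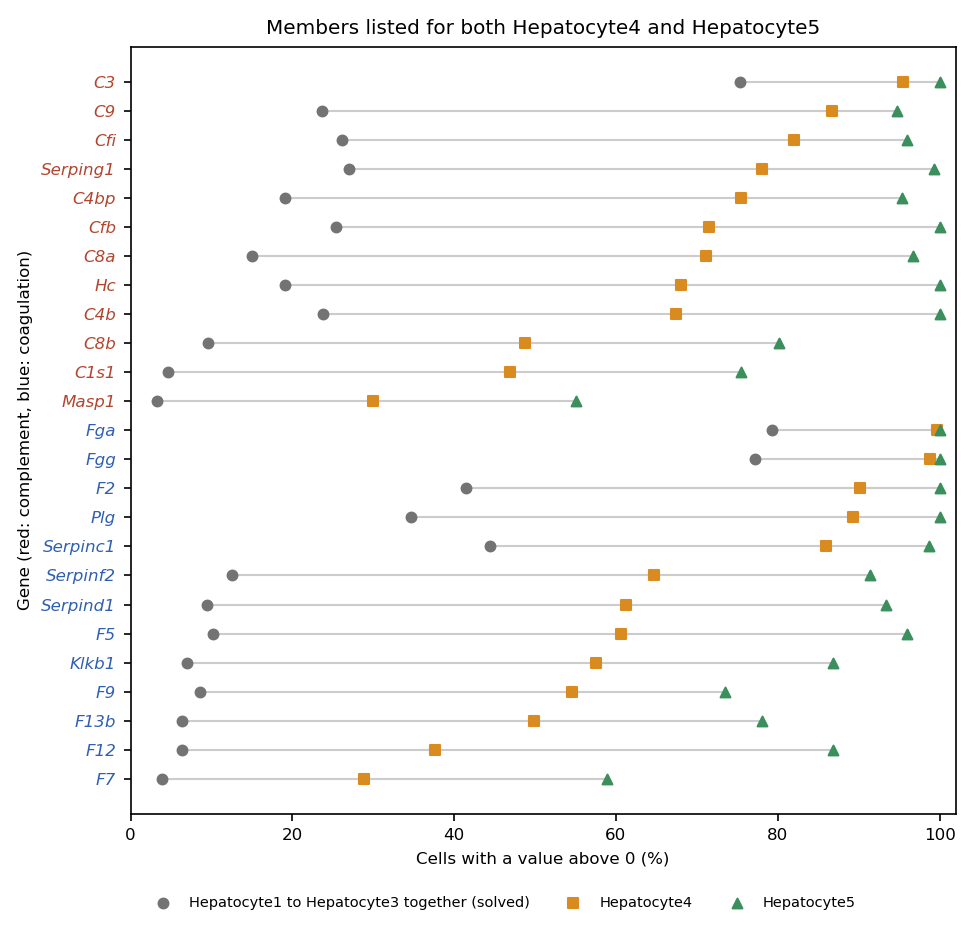
Share of cells with a value above 0 (x axis, %) for the 25 genes listed for both Hepatocyte4 (squares) and Hepatocyte5 (triangles), with the solved share in Hepatocyte1 to Hepatocyte3 together (circles). Complement genes are named in red and coagulation genes in blue. In each gene the circle is lowest and the triangle highest, and the circles run from 3.28% to 79.3%.

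Over all hepatocytes the size-weighted share ordered the members from Fgb at 92.0%, Fga at 83.3%, Fgg at 81.4% and C3 at 79.3% down to C6 at 5.81%, C1ra at 5.29%, Pros1 at 4.03% and F11 at 3.29%. Vtn (62.3%), Kng1 (57.1%), Serpinc1 (52.7%) and F2 (51.1%) followed the leading genes, and the median of the 38 was 26.9%. Without replicates, neighbours in this order cannot be called different. A share counts detection in 3′-end data and is not a level per length. The 13 members listed for Hepatocyte5 alone in the hepatocyte table included both very frequent genes, such as Fgb and Vtn, and the rarest, such as F11 and Pros1. Their median longest transcript was 2503 nt, beside 2734 nt for the 25 listed for both, and all genes listed in those same ways had medians of 3826 and 3348 nt.

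**Figure D3:**
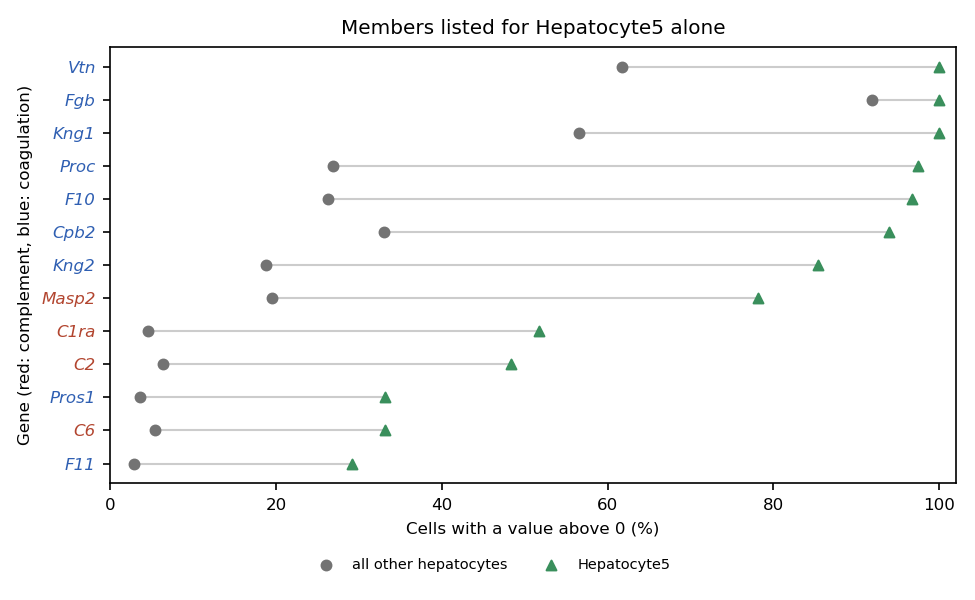
Share of cells with a value above 0 (x axis, %) for the 13 genes listed for Hepatocyte5 alone in the hepatocyte table, in Hepatocyte5 (triangles) and in all other hepatocytes (circles). Complement genes are named in red and coagulation genes in blue. The gaps run from 8.1 points in Fgb to 70.5 points in Proc.

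The table of all cells listed 33 of the 40 genes (14 complement, 19 coagulation). C8b, Masp2, F11, Pros1 and Cpb2 were missing there beside C8g and Mbl2. For the same gene and cluster its shares were often not those of the hepatocyte table. Of 56 such pairs of members 17 were equal, 39 were higher and 0 lower in the table of all cells, with a median change of 4.2 points, 13.4 in Hepatocyte4 and 0.3 in Hepatocyte5. The shares outside the cluster were higher in 56 of 56 pairs, by a median of 20.2 points (range 0.9 to 32.9). The reference in the table of all cells also takes in other cell types, and their part in this rise was not tested. Hc, for example, was at 20.5% outside Hepatocyte4 in the hepatocyte table and at 52.9% in the table of all cells. Over the members each table listed, the median gap in the table of all cells was 35.7 points in Hepatocyte4 and 45.2 points in Hepatocyte5, beside 44.8 and 59.6 points in the hepatocyte table. What was done to the values between both tables is not given in the sources used here, so its shares are given for that table only and were not joined to the others.

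Hepatocyte5 listed 32 members there (24.7% of all genes in the table) and Hepatocyte4 listed 28 (25.2%). Those of Hepatocyte4 included C2, Fgb, Kng1 and Vtn, which the hepatocyte table listed for Hepatocyte5 alone. Their shares in Hepatocyte4 were 44.5% against 34.4%, 99.7% against 92.0%, 96.3% against 72.4% and 96.2% against 70.5%. Hepatocyte2 listed 0 (0.57%) and Hepatocyte3 listed 0 (2.11%). Hepatocyte1 listed 3 (1.77%), which the hepatocyte table did not show. C3 was at 98.1% against 92.5% and Fgb at 96.4% against 90.2%, gaps of 5.6 and 6.2 points. Proc had a lower share inside Hepatocyte1, at 38.5% against 46.7%, although its row, like all rows, was listed with a higher mean in the cluster.

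Outside the hepatocytes, 3 complement genes and 0 coagulation genes were listed. The cluster named HSC / fibroblast (hepatic stellate cells) listed C6 at 73.7% against 14.6%, Masp1 at 89.5% against 39.4% and Serping1 at 100% against 50.8%, 3 members beside 30.5% of all genes. The size of that cluster is not given here. Its shares take few, widely spaced values, so they may rest on few cells. The Kupffer cell cluster, of the liver's resident macrophages, listed C6 at 63.6% against 13.4%, 1 member beside 28.4% of all genes. C6 was not listed there for any hepatocyte cluster. The HSC / fibroblast cluster listed 7 of 9 stellate and fibroblast markers and also 7 of 9 endothelial markers, more than the 6 of 9 of the cluster named Endothelial cell, and from which of these cells its 3 genes came cannot be told apart. It listed 0 of 8 hepatocyte markers, as did the Kupffer cell cluster, which listed 8 of 9 Kupffer markers. The clusters named B cell (29.1% of all genes), Endothelial cell (5.58%), Neutrophil (12.9%), Red blood cell (18.2%) and T cell (34.1%) listed 0 members. The cluster named Red blood cell listed only 1 of 6 red blood cell markers (Car2). The one named Neutrophil listed 5 of 6 neutrophil markers and also the T cell marker Cd3d.

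**Figure D4:**
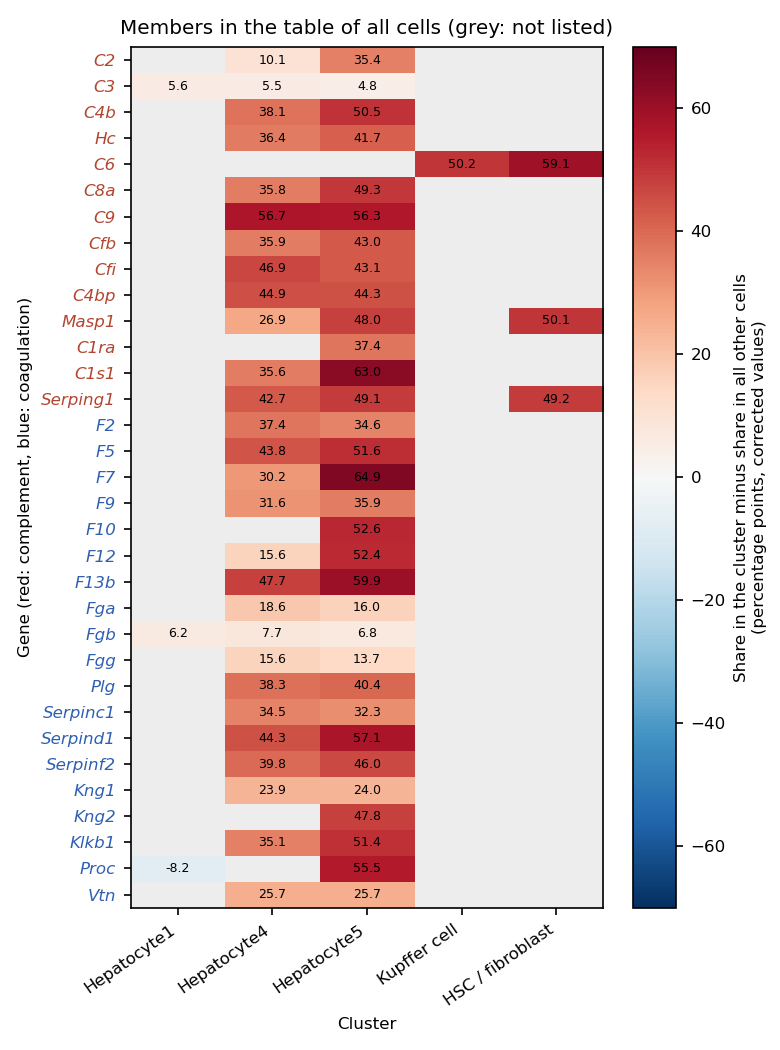
Share inside the cluster minus share in all other cells (colour, percentage points, with the value printed) for the 33 genes of the table of all cells (rows) in the 5 clusters that list any of them (columns). Grey cells are not listed. The colour bar also reads "corrected values", but the sources used here give no such correction. The columns of Hepatocyte4 and Hepatocyte5 are filled with positive values, and outside hepatocytes C6, Masp1 and Serping1 appear.

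A wider list of 64 other complement and coagulation genes, 32 for each cascade, gave the setting. In the hepatocytes 19 were listed, 17 for Hepatocyte5 (54.3% of all genes), 11 for Hepatocyte4 (54.7%), 1 for Hepatocyte1 (10.5%) and 0 for the other clusters. Among its complement genes, Crp, an acute-phase pentraxin, was at 84.8% of Hepatocyte5 against 22.1%. The largest gaps among its coagulation genes were those of Lman1, a cargo receptor for factors V and VIII, at 88.7% against 18.9%, and of Proz, protein Z, at 72.2% against 12.2%. The near-identical copies C4a, C1rb and C1s2, named here after their values were seen, were listed for Hepatocyte5 alone in the hepatocyte table, C4a at 38.4% against 3.5%, C1rb at 33.8% against 2.9% and C1s2 at 48.3% against 4.4%.

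Among all cells 28 of the 64 were listed, 9 for Kupffer cells (28.4% of all genes), 7 for HSC / fibroblast (30.5%), 12 for Hepatocyte5 (24.7%) and 11 for Hepatocyte4 (25.2%). C1qa, a chain of the recognition molecule C1q, was detected in 95.4% of Kupffer cells against 24.4%. Colec11, a collectin that activates the lectin pathway, was in 100% of HSC / fibroblast cells against 0.4%, and F2r, a thrombin receptor, in 89.5% against 5.9%. F8, the cofactor of factor IX, was listed for the same cluster at 63.2% against 1.6%. As said above, the shares of the HSC / fibroblast cluster may rest on few cells. None of these 4 genes had a row in a hepatocyte cluster of either table. The other rows of the wider list fell on neutrophils (3, beside 12.9% of all genes), B cells (2, 29.1%), T cells (2, 34.1%) and Hepatocyte2 (1, 0.57%).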

How the data were processed

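Primary mouse hepatocytes were measured by 10x 3′ scRNA-seq, with 1 PBS and 1 rIL-33 library. The authors used Cell Ranger with mm10 for UMI counts, removed hepatocytes with too many genes as potential doublets and those with too few genes or a high mitochondrial share, normalized to a fixed total with a natural log transformation, clustered with Seurat and ran FindAllMarkers. Each deposited fraction is the proportion of nonzero cells that the authors computed for a cluster or its reference cells over both pooled libraries, printed here as percent. The tables also hold the authors' fold changes, p-values and adjusted p-values. None is printed, and the fold changes were read once, for their minimum. UMIs per cell and library depth were not analysed here.

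Genes with date-like names (7 rows) were left out. Relative cluster sizes came from a least-squares fit that balances the 2 fractions of each row over genes with rows in at least 2 clusters, checked on simulated sizes, and used to solve shares over groups of clusters. Promoter strings were counted in the RefSeq table of GRCm38.p6, and coordinates and transcript lengths are from GENCODE M21. Versions were NumPy 2.4.6, SciPy 1.17.1 and pandas 2.3.3 under Python 3.11.15. No test was possible. Every listed member is named; of the wider list, the 8 with the largest gaps per cascade and table were to be named, of which 1 is not reported here, with 3 near-identical copies added after their values were seen. Members and lists were chosen with earlier results of these data known. Alternatives were gap minimums, other scales, the other table and other size fits.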

Additional observations from a re-analysis of the deposited data

How the results depend on the processing

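Of 42 alternative values, 41 kept their direction or stayed within 1.5 times the reported one. The exception was the number of members listed for Hepatocyte1, 0 in the hepatocyte table and 3 in the table of all cells. Some alternatives could not differ: a count of 0 stays 0 under a stricter gap, and other scales were compared by direction only. The comparison of members to all rows was not among these values. In Hepatocyte4 it depended on the scale, with 44.8 beside 33.1 points but implied ratios of 5.89 beside 5.96. Requiring a gap of at least 20 points left 24 members in Hepatocyte4 and 35 in Hepatocyte5. Other fits moved no relative cluster size by more than 0.102 points. The share of members in non-hepatocyte cells was not computed, because the same gene and cluster had different shares in both tables. No paired analysis was possible because the series has 1 library per condition and both are pooled. Depth per cell is unknown, so low shares cannot be told from low depth.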
